A study of Chlorocebus sabaeus with 18 samples.

Results

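The 10 genes examined belong to the heterogeneous nuclear ribonucleoprotein (hnRNP) family and were taken from 19997 genes or groups of overlapping genes in the count tables. They were HNRNPA1, HNRNPA2B1, HNRNPC, HNRNPD, HNRNPF, HNRNPH1, HNRNPK, HNRNPL, HNRNPM and HNRNPU. They were selected by Ensembl gene ID, with no measured value in the selection rule, but earlier results of these data were known. Their symbols come from that rule because the count tables hold no gene names. The members held 589 of the 603668 exon bins of the authors' normalised table. An exon bin is a stretch of annotated exon that has been divided at every exon boundary of any transcript, and the bins of a gene are numbered from E001 by rising coordinate on the human assembly GRCh38. All 10 members passed the filter on low values, which asked for normalised counts of 10 and above in 3 libraries or more, and 546 of their 578 bins with counts did so.

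The cells were COS-7, a fibroblast-like kidney line of the African green monkey, and the RNA reads were counted on human gene models. Each group had 3 samples. CGG cells had been transfected with a run of 60 CGG repeats, the expansion of the FMR1 leader that underlies the disorder FXTAS. TRA_OE cells overexpressed the splicing factor TRA2A, and the titles of these samples also carry the tag GFP. In siTRA cells TRA2A was knocked down, and CGG_siTRA cells had both the repeat and the knockdown. CTL cells are labelled only as control COS-7 cells. No group is labelled as an empty vector or a control siRNA, so an effect of transfection cannot be told apart from an effect of the named treatment in any comparison with CTL. The same holds for the siRNA added in CGG_siTRA vs CGG and for the plasmid added in CGG_siTRA vs siTRA. In TRA_OE vs siTRA the groups differ in reagent, plasmid or siRNA, as well as in TRA2A. A comparison of the knockdown effect with and without the repeat includes CTL, so the limit of transfection holds there too. A further group, CGG_TRA, with the repeat and the overexpression, enters only through the authors' deposited splicing tables. In the CGG_siTRA titles 1 sample is marked as of the first round and another as of the third, and the remaining title names no round. What a round was is not explained, the count columns cannot be tied to rounds, and no other group has a round in its titles. Nothing else in the labels says whether the samples of a group came from separate cultures. The p-values therefore reflect the spread among these samples alone, and that spread may be technical.

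The hnRNP proteins coat nascent transcripts in the nucleus and take part in splicing, polyadenylation, export and decay of messenger RNA. Many of them act on exon choice against or together with SR and SR-like proteins, to which TRA2A belongs. Several members control their own transcripts through alternative exons, retained introns or alternative 3′ ends that lower the amount of productive messenger RNA, as described for human and mouse cells.

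The 15 libraries with counts held between 121142115 and 203957869 bin counts, and the members between 12730 and 411347 each per library. TRA2A itself (ENSG00000164548.10) averaged 15861 scaled counts in CGG, 194643 in TRA_OE, 3908 in siTRA and 4471 in CGG_siTRA, against 16418 in CTL. It was the only gene (1 of those tested) that passed both a 2-fold rise in TRA_OE and a 2-fold drop under knockdown. The drop was required with and without the repeat. TRA2A was recognised by that behaviour, so these levels are no separate evidence of the overexpression or the knockdown. Scaled counts are the counts summed over the bins of a gene, put on the mean library size with TMM factors. They depend on gene length, so they are compared here within a gene only. Marker genes of the cell line were not examined, because 0 of the 23133 human gene IDs had an entry among the names of the monkey gene table used as reference.

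The amounts of the 10 transcripts changed little. The largest log2 change of a member past the test was -0.47, for HNRNPD in CGG vs CTL, and the other 17 changes past the test lay between -0.31 and 0.33. In CGG vs CTL 1 of the 10 members passed the test, and it was lower in CGG. Of all 14969 genes tested 24.2% passed in that comparison, 11.9% higher and 12.3% lower, by edgeR's quasi-likelihood test with a Benjamini-Hochberg adjusted p under 0.05. In TRA_OE vs CTL 2 members were higher in TRA_OE and none was lower, against 28.9% of all genes called, 14.5% higher and 14.4% lower. In siTRA vs CTL 1 member was higher and 2 were lower, against 38.0% of all genes, 18.1% higher and 19.9% lower. In CGG_siTRA vs CTL 4 members were lower and none was higher, against 30.9% of all genes, 14.8% higher and 16% lower. The count was 0 in CGG vs CTL without CGG library b or c or CTL library a or c and 2 without siTRA library b. In siTRA vs CTL it was 1 without siTRA library a or CTL library a or b, and in CGG_siTRA vs CTL it was 1 without CGG_siTRA library b and 2 without CTL library c. These 4 comparisons share the CTL libraries. In bulk RNA, fewer cells of a kind and less RNA per cell cannot be told apart.

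Between treated groups the number of members called was 2, 0 and 6 in 3 comparisons. When the knockdown was added to the repeat, in CGG_siTRA vs CGG, 2 members were lower, against 10.2% of all genes, 4.14% higher and 6.03% lower. The count there was 0 without CGG library c, 3 without CGG_siTRA library a, and 1 without CGG library a or b, TRA_OE library a or b, siTRA library a, CGG_siTRA library b or any 1 CTL library. In CGG_siTRA vs siTRA 0 members passed in edgeR or DESeq2, 2 had an unadjusted p under 0.05 in edgeR, and 0.0134% of all genes passed. Without CGG_siTRA library a, 2 members passed. In TRA_OE vs siTRA, the comparison of high with low TRA2A, 6 members were higher in TRA_OE and none was lower, against 31.6% of all genes called, 16.8% higher and 14.7% lower. When only the libraries of these 2 groups entered the fit, 2 of the 6 passed, and 3 passed without TRA_OE library c or without siTRA library a. For the difference between the knockdown effects with and without the repeat, (CGG_siTRA - CGG) - (siTRA - CTL), 0 members passed in edgeR or DESeq2. An unadjusted p under 0.05 was found for 2 in edgeR, and 19.4% of all genes passed, 10.2% above 0 and 9.12% below. The count was 1 without siTRA library b or without CGG_siTRA library a or c.

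The members are deeply counted and were not matched to genes of like depth, so the medians given next are a description. The median absolute log2 change of the members was below that of all genes tested in each of the 7 comparisons. It was 0.05 for the members and 0.19 for all genes in CGG vs CTL, 0.10 and 0.21 in TRA_OE vs CTL, and 0.10 and 0.25 in siTRA vs CTL. It was 0.16 and 0.22 in CGG_siTRA vs CTL, 0.06 and 0.14 in CGG_siTRA vs CGG, 0.07 and 0.14 in CGG_siTRA vs siTRA, and 0.21 and 0.22 in TRA_OE vs siTRA. In TRA_OE vs siTRA 9 of the 10 log2 changes were positive, and in siTRA vs CTL 1 was. Both comparisons use the siTRA libraries, so these are not separate results, and the share of positive changes among all genes was not counted. With the authors' scaling the median log2 change of all genes was 0.07 in TRA_OE vs siTRA and -0.07 in siTRA vs CTL.

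**Figure D1:**
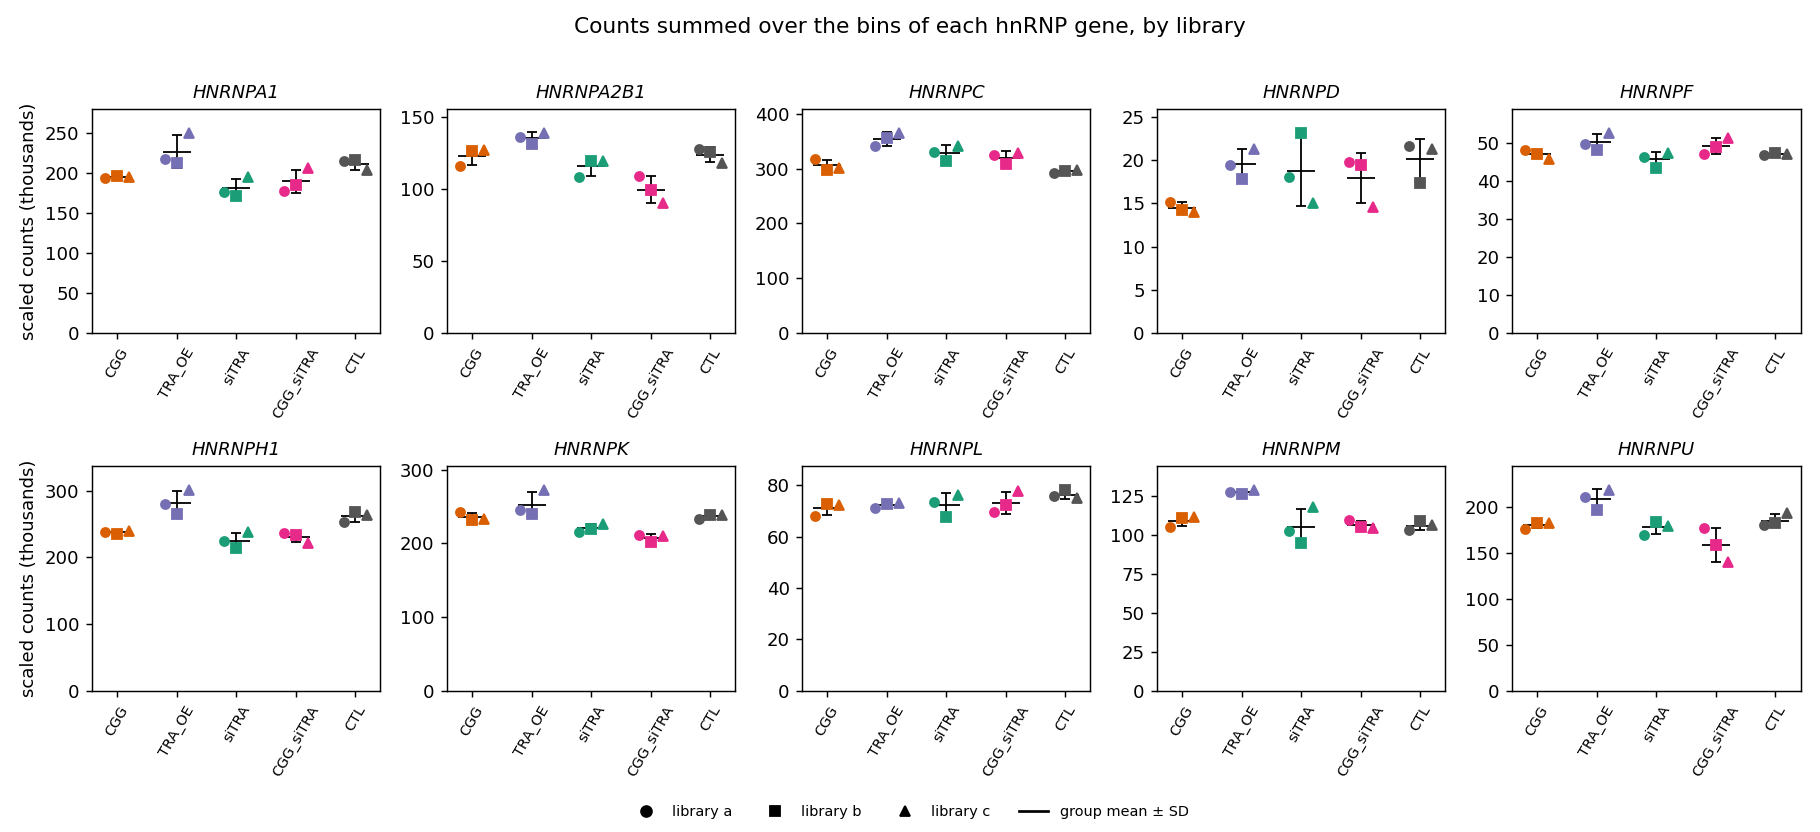
Scaled counts of each of the 10 hnRNP genes in the 15 libraries, by group. Points are libraries a, b and c, and the bar and whiskers give the group mean and SD of 3 libraries. The 3 CGG libraries of HNRNPD lie below its 3 CTL libraries, and TRA_OE lies above CTL in HNRNPC and HNRNPM.

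**Figure D2:**
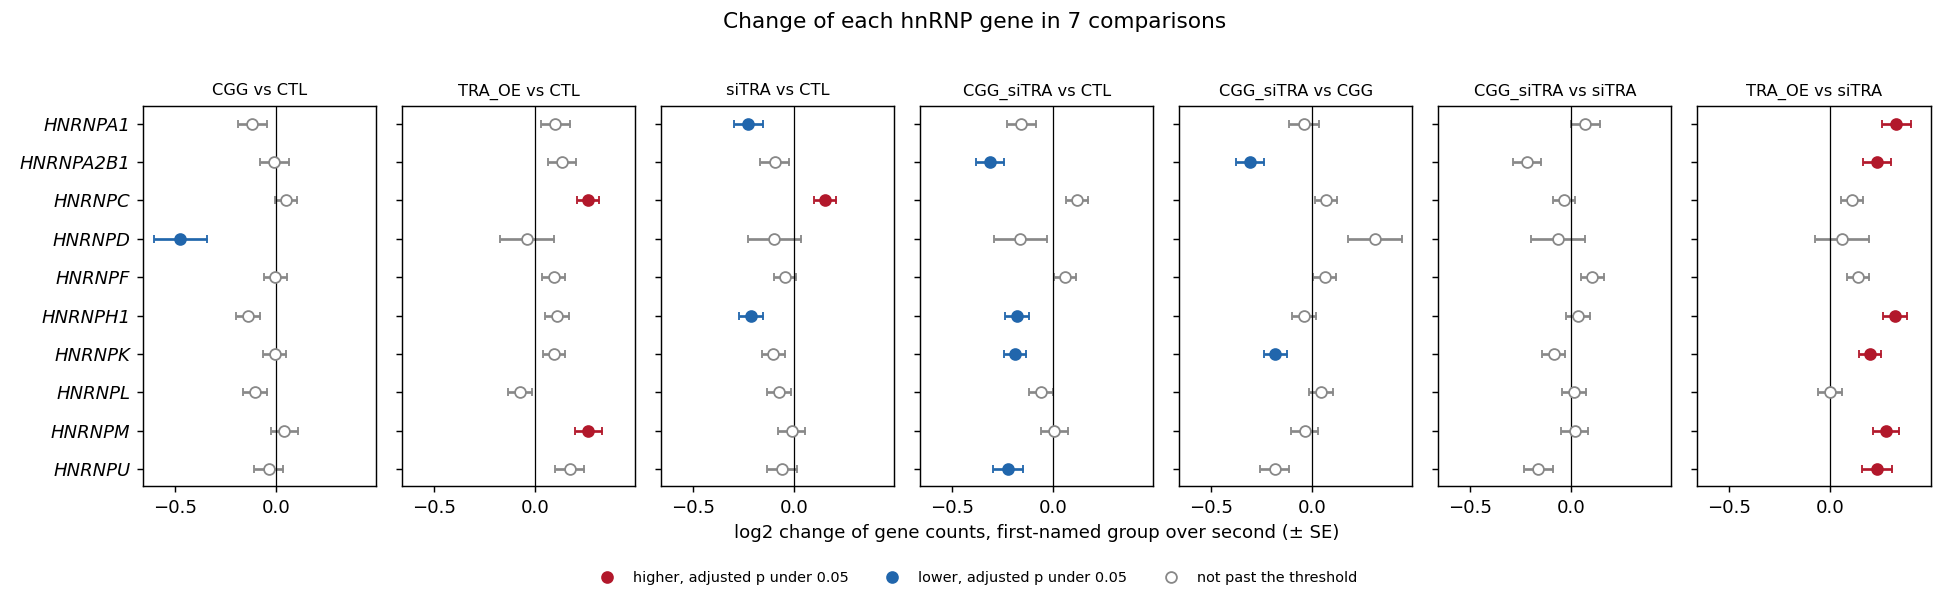
Log2 change of the gene's counts with its SE for each member in 7 comparisons, first-named group over second, from edgeR. Filled points passed an adjusted p of 0.05. Only TRA_OE vs siTRA has 6 filled points, all to the right of 0.

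Among the proteins of the core hnRNP particle, HNRNPC was higher in TRA_OE than in CTL. HNRNPC (ENSG00000092199, minus strand of chromosome 14, 21209136 to 21269494), which binds uridine-rich stretches as a tetramer, had 340290, 356555 and 365496 scaled counts in TRA_OE libraries a, b and c, against 292236, 296331 and 296729 in CTL. The groups did not overlap, and the log2 change was 0.26 (SE 0.06 and adjusted p = 0.00165 in edgeR). This call was kept under each of its 22 alternatives. In siTRA, HNRNPC had 330288, 312932 and 341900 scaled counts, also all above CTL, with a log2 change of 0.15 (SE 0.06, adjusted p = 0.0348). That call ended in 9 of its 22 alternatives, among them the authors' scaling (adjusted p = 0.208), and without siTRA library a or c or without any 1 CTL library (adjusted p between 0.0663 and 0.102, all by edgeR). TRA_OE and siTRA overlapped in HNRNPC, at a log2 change of 0.11 (SE 0.06 and adjusted p = 0.145 in edgeR). All libraries of the 4 treated groups lay above all CTL libraries in this gene. However, CGG library b, at 297337, was close to CTL library c, at 296729. CGG and CGG_siTRA did not pass against CTL, at log2 changes of 0.05 (SE 0.06, adjusted p = 0.548) and 0.12 (SE 0.06, adjusted p = 0.117, both in edgeR).

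HNRNPA1 (ENSG00000135486, plus strand of chromosome 12, 54280193 to 54287088), which represses exons and shuttles between nucleus and cytoplasm, was lower in siTRA than in CTL and higher in TRA_OE than in siTRA. Its scaled counts were 217353, 213052 and 250623 in TRA_OE, 176303, 171872 and 194842 in siTRA, and 215575, 216543 and 203374 in CTL. All siTRA libraries lay below all TRA_OE and all CTL libraries, while TRA_OE and CTL overlapped. The log2 change was 0.33 in TRA_OE vs siTRA (SE 0.07, adjusted p = 0.00221) and -0.23 in siTRA vs CTL (SE 0.07, adjusted p = 0.0189), both in edgeR. The first was kept under each of its 22 alternatives. The second ended without siTRA library a or without CTL library a or b (adjusted p between 0.061 and 0.0656, edgeR) and when the highest bin stood for the gene (adjusted p = 0.0774). CGG_siTRA, with 177815, 185598 and 206084, overlapped with CTL.

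HNRNPA2B1 (ENSG00000122566, minus strand of chromosome 7, 26189927 to 26201529), a close relative of HNRNPA1 that also takes part in RNA transport, was lowest in CGG_siTRA. It had 109208, 99400 and 90403 scaled counts there, against 115979, 126872 and 127068 in CGG and 127818, 125956 and 118064 in CTL. No CGG_siTRA library reached the lowest library of CGG or CTL. The log2 change was -0.31 both against CGG (SE 0.07, adjusted p = 0.00704) and against CTL (SE 0.07, adjusted p = 0.00213) in edgeR. The change against CTL was kept under each of its 22 alternatives, and the change against CGG ended without CGG library c (adjusted p = 0.0529) and when the highest bin stood for the gene (adjusted p = 0.073). In siTRA, with 108457, 119445 and 119821, the gene overlapped with CTL and gave a log2 change of -0.10 (SE 0.07 and adjusted p = 0.3 in edgeR). It was higher in TRA_OE than in siTRA, at 136745, 131854 and 139427, with a log2 change of 0.23 (SE 0.07 and adjusted p = 0.0177 in edgeR). That call ended in 6 of its 22 alternatives, among them without any 1 TRA_OE library or without siTRA library a (adjusted p between 0.0519 and 0.126).

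HNRNPH1 and HNRNPF both bind runs of guanine near splice sites. HNRNPH1 (ENSG00000169045, minus strand of chromosome 5, 179614178 to 179624584) had 279481, 265045 and 300649 scaled counts in TRA_OE, 224579, 213851 and 237540 in siTRA, 237049, 233606 and 221983 in CGG_siTRA, and 252995, 268109 and 263410 in CTL. Both knockdown groups lay wholly below CTL and below TRA_OE. Its log2 change was 0.32 in TRA_OE vs siTRA (SE 0.06, adjusted p = 0.000519) and -0.21 in siTRA vs CTL (SE 0.06, adjusted p = 0.00823), and both held under each of their 22 alternatives (edgeR). In CGG_siTRA vs CTL it was -0.18 (SE 0.06 and adjusted p = 0.0283 in edgeR), a call that ended without CGG_siTRA library b or c or CTL library b or c (adjusted p between 0.0545 and 0.0877). The CGG libraries, at 238532, 234677 and 240173, also lay below CTL, with a log2 change of -0.14 (SE 0.06 and adjusted p = 0.106 in edgeR). HNRNPF (ENSG00000169813, minus strand of chromosome 10, 43385617 to 43409166) passed the test in none of the 7 comparisons, with group means between 45663 in siTRA and 50226 in TRA_OE, against 47113 in CTL. In TRA_OE vs siTRA, where its libraries did not overlap, the log2 change was 0.14 (SE 0.06 and adjusted p = 0.0716 in edgeR).

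HNRNPK (ENSG00000165119, minus strand of chromosome 9, 83968083 to 83980616), which binds cytosine-rich stretches through KH domains, had 211672, 201806 and 209510 scaled counts in CGG_siTRA, against 242438, 231484 and 233315 in CGG and 232927, 238194 and 239247 in CTL. It was lower in CGG_siTRA than in CTL, with a log2 change of -0.19 (SE 0.06, adjusted p = 0.0155) in edgeR. That call ended without CGG_siTRA library b (adjusted p = 0.0624) and when the highest bin stood for the gene (adjusted p = 0.133). Against CGG the log2 change was -0.18 (SE 0.06 and adjusted p = 0.0457 in edgeR), and 15 of 22 alternatives ended that call. Among them were 11 fits without 1 library, namely any of CGG or CTL, CGG_siTRA library b or c, TRA_OE library a or b, or siTRA library a (adjusted p between 0.0504 and 0.195). HNRNPK was also higher in TRA_OE than in siTRA, at 0.20 (SE 0.06 and adjusted p = 0.0125 in edgeR), except without TRA_OE library c or siTRA library a (adjusted p = 0.118 and 0.0698) and with only the groups compared (adjusted p = 0.109). Its row of the count table is shared with 1 other gene ID.

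HNRNPM (ENSG00000099783, plus strand of chromosome 19, 8444767 to 8489114), a regulator of exon skipping that binds GU-rich stretches, had 127641, 126280 and 128971 scaled counts in TRA_OE, 102820, 95370 and 117929 in siTRA, and 103161, 109258 and 106334 in CTL. The 3 TRA_OE libraries lay above all libraries of siTRA and of CTL, which overlapped with each other. The log2 change was 0.26 against CTL (SE 0.07, adjusted p = 0.00609) and 0.28 against siTRA (SE 0.07, adjusted p = 0.00412) in edgeR. The first ended when the highest bin stood for the gene (adjusted p = 0.0873), and the second when only the libraries of the groups compared were fitted (adjusted p = 0.0547).

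HNRNPL (ENSG00000104824, minus strand of chromosome 19), which binds CA repeats, shares its row with 2 other gene IDs and passed the test in none of the 7 comparisons. Its own stretch, 40 of 79 bins on chromosome 19 from 38836388 to 38852347, held 84.0% of the row's counts. Counted over that stretch alone, an alternative added after the data were seen, HNRNPL was lower in CGG than in CTL, at -0.17 (SE 0.05, adjusted p = 0.0224), and lower in CGG_siTRA than in CTL, at -0.14 (SE 0.05, adjusted p = 0.0483, both in edgeR). The rest of the row had positive log2 changes, 0.23 (SE 0.14, adjusted p = 0.249) and 0.36 (SE 0.14, adjusted p = 0.0524), in the same comparisons. The value of the whole row therefore holds opposite signs.

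HNRNPD (ENSG00000138668, minus strand of chromosome 4, 82352498 to 82374503), also called AUF1, binds AU-rich elements and promotes or delays messenger RNA decay. It had 15200, 14210 and 13949 scaled counts in CGG, against 21567, 17374 and 21237 in CTL. The CGG libraries lay close together and all below CTL, at a log2 change of -0.47 (SE 0.13 and adjusted p = 0.0145 in edgeR). The call ended without CGG library b or c or CTL library a or c (adjusted p between 0.0504 and 0.07) and in limma (adjusted p = 0.051). In CGG_siTRA the gene had 19758, 19425 and 14626 scaled counts, so that libraries a and b lay within the range of CTL and library c within that of CGG. The log2 change of CGG_siTRA vs CGG was 0.31 (SE 0.13 and adjusted p = 0.168 in edgeR), and 0.45 (adjusted p = 0.0362) without CGG_siTRA library c. In siTRA the values were 18087, 23153 and 15044, the widest spread of this gene, with library c again the lowest.

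HNRNPU (ENSG00000153187, minus strand of chromosome 1, 244840638 to 244864560), a scaffold protein that ties RNA to chromatin, was lower in CGG_siTRA than in CTL and higher in TRA_OE than in siTRA. Its scaled counts were 210526, 197167 and 218305 in TRA_OE, 169828, 183910 and 179721 in siTRA, 177407, 159272 and 139775 in CGG_siTRA, and 180612, 182300 and 193185 in CTL. The 3 TRA_OE libraries lay above, and the 3 CGG_siTRA libraries below, all CTL libraries, while siTRA and CTL overlapped. The log2 change was 0.23 in TRA_OE vs siTRA (SE 0.07, adjusted p = 0.0223) and -0.22 in CGG_siTRA vs CTL (SE 0.07, adjusted p = 0.0264) in edgeR. The first ended without TRA_OE library a or c or siTRA library a or c (adjusted p between 0.0559 and 0.122) and with only the groups compared (adjusted p = 0.0602). The second ended without CGG_siTRA library b or c or CTL library c (adjusted p between 0.063 and 0.143), with only the groups compared and when the highest bin stood for the gene (between 0.054 and 0.0551).

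Relative use of an exon bin is its counts set against those of the other bins of its gene. Of the 546 bins tested in the members, 61 in 8 genes passed edgeR's diffSpliceDGE with a Benjamini-Hochberg adjusted p under 0.05 in at least 1 comparison. In CGG vs CTL 22 bins passed, 12 higher and 10 lower, against 0.250% of all 265486 bins, 0.148% higher and 0.103% lower. In TRA_OE vs CTL 33 passed, 9 higher and 24 lower, against 0.368% of all bins, 0.185% higher and 0.183% lower. In siTRA vs CTL 17 passed, all higher, against 0.508% of all bins, 0.322% higher and 0.186% lower. In CGG_siTRA vs CTL 22 were higher and 2 lower, against 0.530%, 0.434% higher and 0.0964% lower. Between treated groups, CGG_siTRA vs CGG had 18 called bins, all higher, against 0.135%, 0.101% higher and 0.0335% lower. CGG_siTRA vs siTRA had 1, which was higher, against 0.0516%, 0.0422% higher and 0.00942% lower. TRA_OE vs siTRA had 29, all lower, against 0.396%, 0.103% higher and 0.293% lower. For the difference between the knockdown effects with and without the repeat 3 bins lay above 0 and 7 below, against 0.108%, 0.0554% above and 0.0531% below. The members are deeply counted, their bins were not matched to others of like depth, and bins of 1 gene share their counts, so these shares are a description.

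Single libraries moved these counts. In CGG vs CTL the count lay between 9 and 13 without any 1 CGG library or without CTL library a or c, in TRA_OE vs CTL it was 21 without CTL library c, and in siTRA vs CTL it was 11 and 10 without CTL library b and c. In CGG_siTRA vs CTL it was 7 without CGG_siTRA library b or CTL library c, 15 and 10 without CTL library a and b, and 38 without siTRA library b. In CGG_siTRA vs CGG it was 1 without CGG_siTRA library b, between 3 and 9 without CGG library a or b or CGG_siTRA library a, and 39 without CGG_siTRA library c. The 1 bin in CGG_siTRA vs siTRA was E088 of HNRNPU, at 0.62 (adjusted p = 0.0173), named after its value was seen. The count there was 0 without siTRA library b or CGG_siTRA library b or c, 4 without siTRA library c and 10 without CGG_siTRA library a. In TRA_OE vs siTRA the count was 17 without TRA_OE library b, 7 without siTRA library b and 65 without siTRA library c. The authors' deposited tables called more bins of the members in 5 of the 6 comparisons they cover, 109 in CGG vs CTL and 71 in TRA_OE vs CTL, and fewer, 12, in TRA_OE vs siTRA. The share of all bins that those deposited tables called is not given here. None of their bin numbers, for the members or for a single gene, therefore sets the members apart from other genes. Where diffSpliceDGE called no lower bin, in siTRA vs CTL and CGG_siTRA vs CGG, the authors' deposited tables held bins of both directions. Of the bins called in the authors' deposited tables, the lower ones in CGG vs CTL were 46 of 109. The lower ones numbered 52 of 71 in TRA_OE vs CTL, 18 of 42 in siTRA vs CTL, 23 of 74 in CGG_siTRA vs CTL, 24 of 59 in CGG_siTRA vs CGG and 12 of 12 in TRA_OE vs siTRA.

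**Figure D3:**
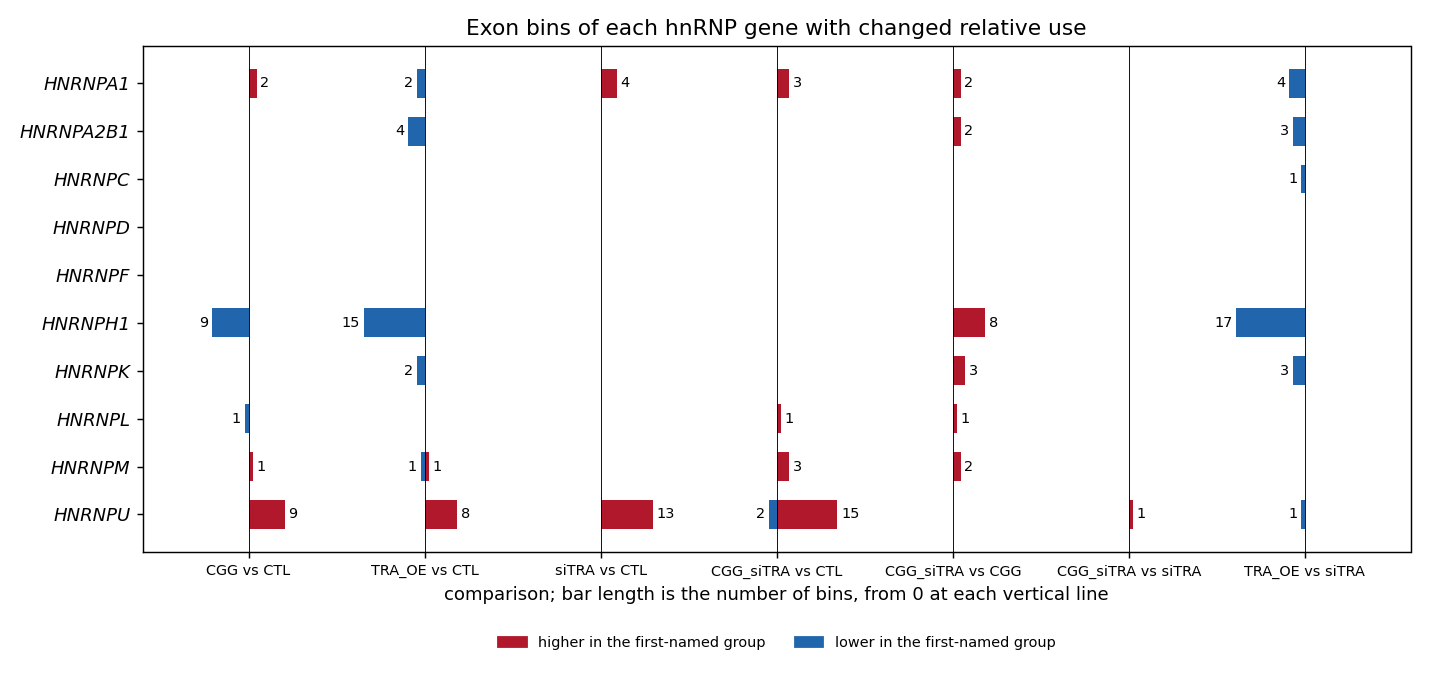
Number of exon bins of each hnRNP gene called by diffSpliceDGE at an adjusted p under 0.05 in 7 comparisons, with bars to the right for bins higher and to the left for bins lower in the first-named group. HNRNPU carries most of the higher bins of the comparisons with CTL, 9 of 12, 8 of 9, 13 of 17 and 15 of 22, and HNRNPH1 most of the lower bins, 9 in CGG vs CTL, 15 in TRA_OE vs CTL and 17 in TRA_OE vs siTRA.

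The bins at the 3′ end of HNRNPU took a larger share of the gene's counts in all 4 treated groups than in CTL. The 18 bins E001 to E018 lie on the minus strand of chromosome 1 from 244840638 to 244850296, at the 3′ end of the annotated gene. Together they held 0.848%, 0.702% and 0.815% of the gene's bin counts in CGG, 0.699%, 0.488% and 0.788% in TRA_OE, 0.852%, 1.27% and 0.694% in siTRA, and 0.880%, 0.980% and 0.662% in CGG_siTRA, against 0.374%, 0.259% and 0.312% in CTL. Each of the 12 treated libraries lay above each CTL library, although the whole run is a small part of the gene's counts. The mean share was 2.5 times that of CTL in CGG, 2.09 times in TRA_OE, 2.97 times in siTRA and 2.67 times in CGG_siTRA.

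Of the 16 bins of this run that were tested, 9 passed as higher in CGG, 7 in TRA_OE, 13 in siTRA and 12 in CGG_siTRA, and 0 passed as lower, each against CTL (diffSpliceDGE, adjusted p under 0.05). These 4 counts share the CTL libraries. Between treated groups, 0 of the 16 passed in CGG_siTRA vs CGG, CGG_siTRA vs siTRA or TRA_OE vs siTRA. The run was delimited after its values were seen. Its summed share, the lack of overlap of that share with CTL and the number of its bins called therefore carry no test. Neighbouring bins can also share reads, so the called bins are not separate results. The largest changes fulfilling the naming rule were in bins E014, E013 and E001.

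Bin E014 of HNRNPU, 48 bases from 244847054 to 244847101, held 0.0531%, 0.105% and 0.0392% of the gene's counts in siTRA, against 0.0165%, 0.0126% and 0.0186% in CTL. It had 90.23, 193.5 and 70.38 scaled counts in siTRA libraries a, b and c, and 29.85, 23.03 and 35.95 in CTL. Its log2 change of relative use was 2.04 in siTRA (SE 0.29, adjusted p = 1.54e-08), 1.62 in CGG (SE 0.29, adjusted p = 0.000131), 1.58 in CGG_siTRA (SE 0.30, adjusted p = 0.000208) and 1.19 in TRA_OE (SE 0.30, adjusted p = 0.0249), each against CTL by diffSpliceDGE. Bin E001, 2486 bases from 244840638 to 244843123 and the 3′-most of the gene, had 123.9 to 252.9 scaled counts in siTRA, 96.4 to 163.1 in CGG_siTRA and 39.9 to 54.5 in CTL. Its log2 change was 1.89 in siTRA (SE 0.24, adjusted p = 1.25e-10), 1.74 in CGG_siTRA (SE 0.25, adjusted p = 2.76e-08), 1.52 in CGG (SE 0.25, adjusted p = 5.95e-06) and 1.22 in TRA_OE (SE 0.25, adjusted p = 0.00107, all diffSpliceDGE). For E001, E013 and E014 the calls in CGG, siTRA and CGG_siTRA against CTL were kept under each of 21 alternatives. Those in TRA_OE ended without single libraries: E001 without TRA_OE library a or CTL library b (adjusted p between 0.0503 and 0.0606), E013 without TRA_OE library c or CTL library b (between 0.0501 and 0.221), and E014 without TRA_OE library a or c or any 1 CTL library (between 0.107 and 0.389).

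A gene on the opposite strand (ENSG00000203667.9) overlaps bins E001 to E004 of HNRNPU. Without counting by strand, which the sources used here do not state, reads of both could not be told apart in those bins. That gene averaged 3096 scaled counts in CGG, 3852 in TRA_OE, 3885 in siTRA and 3602 in CGG_siTRA, against 2691 in CTL, so it too was above CTL, and its part in bins E001 to E004 was not tested. Bins E010 to E018, from 244846604 on, lie outside it and hold 7 of the 9 bins called in CGG vs CTL.

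**Figure D4:**
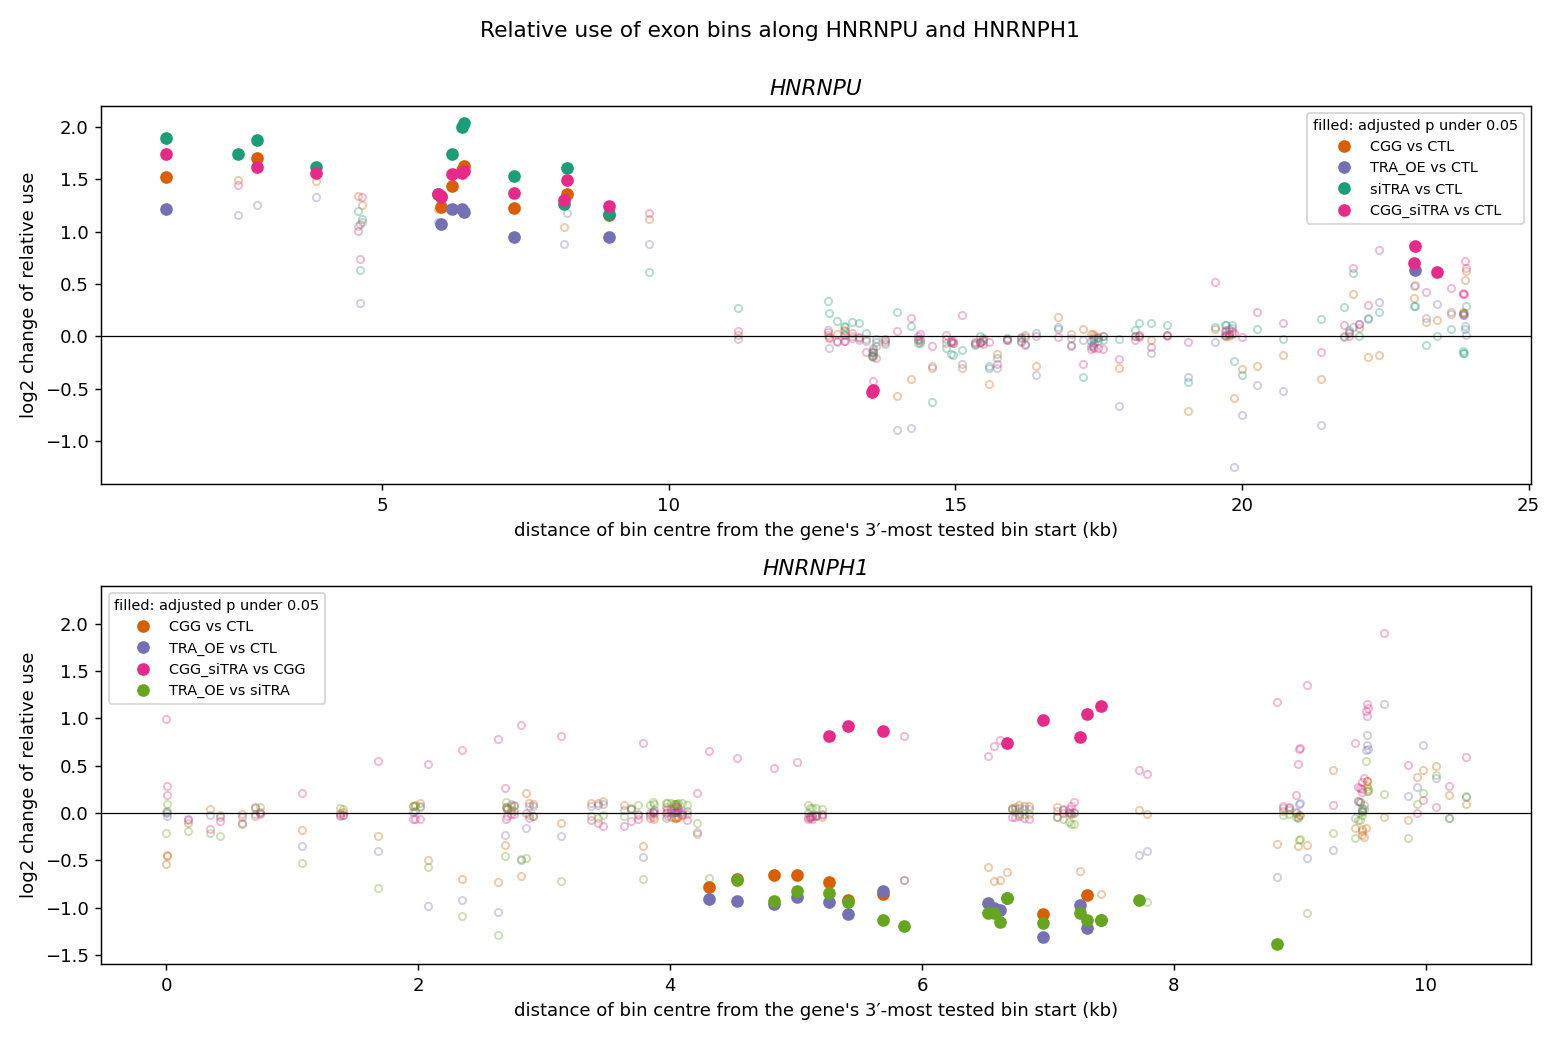
Log2 change of relative use of each tested bin of HNRNPU and HNRNPH1 against the distance of its centre from the 3′-most bin, in kb. HNRNPU is shown for the 4 treated groups against CTL and HNRNPH1 for CGG vs CTL, TRA_OE vs CTL, CGG_siTRA vs CGG and TRA_OE vs siTRA; filled points passed an adjusted p of 0.05. The filled points of HNRNPU at the 3′ end lie between 0.95 and 2.04, and those of HNRNPH1 below 0 in CGG vs CTL and TRA_OE vs CTL are internal bins.

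In HNRNPH1 a block of internal bins was used less in CGG and in TRA_OE than in CTL. There 9 bins passed as lower in CGG vs CTL and 15 in TRA_OE vs CTL, and 0 as higher (diffSpliceDGE). The authors' deposited tables called 30 HNRNPH1 bins in CGG vs CTL, 16 of them lower, and 23 in TRA_OE vs CTL, 18 of them lower. The 15 bins lower in at least 1 of them lie on the minus strand of chromosome 5 from 179618454 to 179621686, with bins that were not called between them. Together they held 1.36%, 1.25% and 1.59% of the gene's counts in CGG and 1.29%, 1.18% and 1.10% in TRA_OE, against 2.52%, 2.09% and 2.46% in CTL. The CGG and TRA_OE libraries lay wholly below CTL, at 0.594 and 0.505 times its mean share. The bins were picked for being lower in these 2 comparisons, so the summed share had to be lower there and carries no test.

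The knockdown groups were split in these bins. The same 15 bins held 2.395%, 3.20% and 1.36% in siTRA and 3.06%, 2.61% and 1.28% in CGG_siTRA. Libraries a and b of both groups lay within or above the range of CTL, while library c of each lay at the level of CGG and TRA_OE. The mean of siTRA was 0.984 times and that of CGG_siTRA 0.983 times CTL, but neither mean describes its 3 libraries. There were 8 HNRNPH1 bins called higher in CGG_siTRA vs CGG, and in TRA_OE vs siTRA 17 passed as lower (diffSpliceDGE), while the authors' deposited table called 1 bin of the gene in TRA_OE vs siTRA.

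Low-coverage bins of all other genes moved with this split. These are 119731 bins with a mean count per base under 0.1 of the upper quartile of their gene, in genes with at least 10 bins, a measure added after the HNRNPH1 values were seen. They took 2.96%, 2.93% and 2.98% of those genes' counts in CGG and 2.98%, 2.86% and 2.95% in TRA_OE, against 3.10%, 3.09% and 3.17% in CTL. In siTRA they took 3.11%, 3.73% and 2.95%, and in CGG_siTRA 3.19%, 3.21% and 2.88%, so that library c was again the lowest of both knockdown groups and siTRA library b the highest of all 15. In the 3′-most run of HNRNPU, siTRA library b also had the largest share, and library c the smallest within siTRA and within CGG_siTRA. In CGG and TRA_OE, by contrast, that run lay above CTL, while the share of low-coverage bins lay below it. The part of this library-wide difference in the HNRNPH1 and HNRNPU results was not tested. The 25 bins of members called lower in CGG or TRA_OE against CTL, 15 of them in HNRNPH1, lay at percentiles 3.23 to 39.1 of the counts per base among the bins of their gene.

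The clearest single bin of HNRNPH1 was E073, 206 bases from 179621036 to 179621241. It held 0.0876%, 0.0951% and 0.122% of the gene's counts in CGG, 0.104%, 0.0844% and 0.0727% in TRA_OE, 0.204%, 0.263% and 0.123% in siTRA, 0.254%, 0.228% and 0.124% in CGG_siTRA, and 0.231%, 0.185% and 0.232% in CTL. Its log2 change of relative use was -1.07 in CGG vs CTL (SE 0.17, adjusted p = 1.08e-06) and -1.31 in TRA_OE vs CTL (SE 0.17, adjusted p = 7.48e-11), both kept under each of 21 alternatives (diffSpliceDGE). Its change in CGG_siTRA vs CGG was 0.98 (SE 0.17, adjusted p = 6.42e-05, diffSpliceDGE), but 0.0805 is the adjusted p of the authors' deposited table and 0.35 that of limma. Bin E080, 50 bases, gave -0.86 in CGG vs CTL (SE 0.22, adjusted p = 0.0485) and -1.21 in TRA_OE vs CTL (SE 0.23, adjusted p = 0.000158, both diffSpliceDGE). The call in CGG vs CTL ended in 13 of its 21 alternatives, among them without CGG library a or b or CTL library a or c (adjusted p between 0.411 and 1), and that in TRA_OE vs CTL in 0. Bin E085, called only in TRA_OE vs siTRA at -1.38 (SE 0.35, adjusted p = 0.0246), had an adjusted p of 1 without siTRA library b and between 0.127 and 0.168 without any 1 TRA_OE library. With only the groups compared and in the authors' deposited table it was between 0.123 and 0.467.

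**Figure D5:**
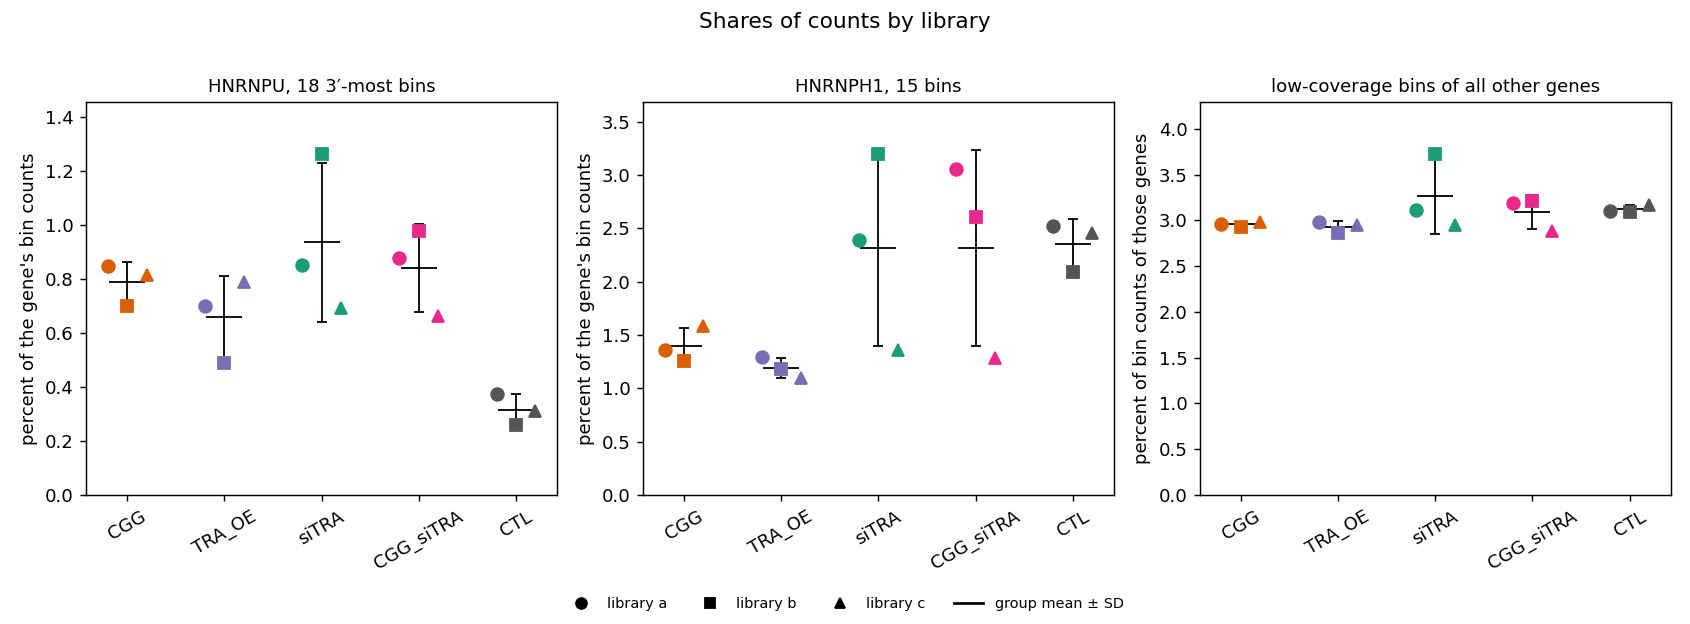
Share of the gene's bin counts, in percent, of the 18 3′-most bins of HNRNPU and of 15 internal bins of HNRNPH1, and share of counts in low-coverage bins of all other genes, by library. Points are libraries a, b and c, with the group mean and SD of 3 libraries. In HNRNPU all 12 treated libraries lie above CTL, and in HNRNPH1 library c of siTRA and of CGG_siTRA lies at 1.36% and 1.28%, apart from libraries a and b.

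HNRNPA1 had called bins in 6 of the 7 comparisons, and bins near its 3′ end lay above CTL in all 4 treated groups. Bins E041 and E043, on the plus strand of chromosome 12 from 54286662 to 54286732 and from 54286953 to 54287051, passed as higher in CGG, siTRA and CGG_siTRA than in CTL. Bin E043 held 0.106%, 0.114% and 0.126% of the gene's counts in CGG, 0.093%, 0.0724% and 0.0775% in TRA_OE, 0.0985%, 0.155% and 0.106% in siTRA, and 0.112%, 0.106% and 0.0807% in CGG_siTRA, against 0.0559%, 0.0642% and 0.0675% in CTL. All libraries of the 4 treated groups lay above all CTL libraries. The log2 change of E043 against CTL was 0.89 in CGG (adjusted p = 0.000706), 0.92 in siTRA (adjusted p = 0.00019) and 0.65 in CGG_siTRA (adjusted p = 0.0449), by diffSpliceDGE. In TRA_OE vs CTL the log2 change was 0.37 for E043 and 0.28 for E041, which did not pass (adjusted p = 1 for both, diffSpliceDGE), and the authors' deposited table gives adjusted p-values of 0.219 and 0.0279 there. These 2 bins were picked out after their values were seen, as bins whose change with the knockdown differed with and without the repeat. CTL enters that difference, so an effect of transfection cannot be told apart there.

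Other bins of HNRNPA1 were lower in TRA_OE. Bin E009, 110 bases from 54281186 to 54281295, held 0.00775%, 0.00976% and 0.00804% of the gene's counts in TRA_OE, against 0.0263%, 0.0241% and 0.0205% in CTL, a log2 change of -1.47 (SE 0.33, adjusted p = 0.00557, diffSpliceDGE). It rests on 16.9 to 20.8 scaled counts per library in TRA_OE, and the call ended without TRA_OE library a or b or CTL library a (adjusted p between 0.0523 and 0.0984). Bin E011, 292 bases from 54281503 to 54281794, was lower in TRA_OE than in siTRA, at -1.09 (SE 0.22, adjusted p = 0.000999), and than in CTL, at -1.08 (SE 0.21, adjusted p = 0.00072, both diffSpliceDGE). The first ended without TRA_OE library b (adjusted p = 0.0879), and the second without TRA_OE library b or CTL library a (between 0.0937 and 0.105). Bin E037, 655 bases from 54285252 to 54285906, gave -1.06 in TRA_OE vs siTRA (SE 0.18, adjusted p = 1.43e-05, diffSpliceDGE). It rests on siTRA library b, at 0.210% of the gene's counts against 0.1002% and 0.0636% in the other siTRA libraries, and the adjusted p was 0.872 without that library and 0.575 in the authors' deposited table.

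HNRNPA2B1 had 4 bins lower in TRA_OE than in CTL, and HNRNPK had 2. All 25 member bins called lower in CGG or TRA_OE against CTL had negative log2 changes in both comparisons. Of them 24 were called in TRA_OE and 10 in CGG. The bins were picked for being lower in at least 1 of these comparisons, and both share the CTL libraries. The common sign therefore carries no test. In HNRNPA2B1, bin E005 lies on chromosome 7 from 26190461 to 26190992 and held 0.204%, 0.189% and 0.202% of the gene's counts in TRA_OE, against 0.328%, 0.339% and 0.347% in CTL. Its log2 change was -0.77 (SE 0.16, adjusted p = 0.00238, diffSpliceDGE), and the call ended without TRA_OE library b (adjusted p = 0.102) and in limma (adjusted p = 0.0519). In CGG it also lay wholly below CTL, at -0.47 (SE 0.16, adjusted p = 0.436, diffSpliceDGE), where the authors' deposited table gives an adjusted p of 1.25e-09. Bin E008, 165 bases from 26191679 to 26191843, gave -0.75 (SE 0.16, adjusted p = 0.0036, diffSpliceDGE) in the same comparison, and ended without TRA_OE library b or CTL library c (between 0.0521 and 0.179) and in limma (adjusted p = 0.0658). In CGG vs CTL it gave -0.46 (SE 0.16, adjusted p = 0.479, diffSpliceDGE), also without overlap, against an adjusted p of 2.33e-09 in the authors' deposited table. In siTRA and CGG_siTRA library c of this bin, at 0.257% and 0.208%, again lay below libraries a and b, at 0.325% and 0.409% in siTRA and 0.424% and 0.343% in CGG_siTRA. Bin E025, 98 bases, was higher in CGG_siTRA than in CGG, at 0.94 (SE 0.23, adjusted p = 0.045, diffSpliceDGE), a call that ended in 14 of its 21 alternatives. Among them were the fits without any 1 library of CGG, TRA_OE or CTL and without CGG_siTRA library a or b (adjusted p between 0.0527 and 0.911).

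In HNRNPK, bin E029, 487 bases on the minus strand of chromosome 9 from 83976508 to 83976994, was lower in TRA_OE than in CTL and in siTRA. It held 0.0931%, 0.0829% and 0.0896% of the counts in TRA_OE, 0.183%, 0.222% and 0.118% in siTRA, and 0.148%, 0.132% and 0.157% in CTL. The log2 change was -0.97 in TRA_OE vs siTRA (SE 0.14, adjusted p = 7.64e-08) and -0.72 in TRA_OE vs CTL (SE 0.14, adjusted p = 0.000414), and both were kept under each of 21 alternatives (diffSpliceDGE). CGG also lay wholly below CTL, at -0.45 (SE 0.14, adjusted p = 0.211, diffSpliceDGE), with an adjusted p of 0.000674 in the authors' deposited table. The same bin gave 0.69 in CGG_siTRA vs CGG (SE 0.14, adjusted p = 0.00232, diffSpliceDGE), which ended without CGG library b or CGG_siTRA library a or b (between 0.0974 and 0.345), in limma (adjusted p = 0.0883) and in the authors' deposited table (adjusted p = 0.143). Bins E013 and E009, 405 and 110 bases, were lower in TRA_OE than in siTRA, at -0.99 (SE 0.23, adjusted p = 0.0123) and -1.07 (SE 0.24, adjusted p = 0.00773, diffSpliceDGE), and neither call held without siTRA library b (adjusted p = 0.311 and 0.805) or without TRA_OE library a (adjusted p = 0.123 and 0.108). That of E013 also ended without TRA_OE library b or siTRA library a (adjusted p = 0.455 and 0.121). With only the groups compared and in the authors' deposited table, both calls ended too (between 0.147 and 0.195 for E009, between 0.242 and 0.334 for E013). E013 gave 1.11 in CGG_siTRA vs CGG (SE 0.23, adjusted p = 0.00368, diffSpliceDGE), and that call ended without CGG library b or CGG_siTRA library a or b (between 0.129 and 0.235) and in the authors' deposited table (adjusted p = 0.0543).

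HNRNPL, HNRNPC and HNRNPM had few called bins. Bin E060 of HNRNPL, 1053 bases on chromosome 19 from 38840560 to 38841612 and inside the gene's own stretch, was lower in CGG than in CTL, at -0.82 (SE 0.20, adjusted p = 0.0254), and higher in CGG_siTRA than in CGG, at 0.93 (SE 0.20, adjusted p = 0.00871, diffSpliceDGE). The first call ended without any 1 library of CGG or CTL (adjusted p between 0.082 and 0.631), and the second without any 1 CGG library or CGG_siTRA library a or b (between 0.0626 and 0.739), in limma and in the authors' deposited table (between 0.0687 and 0.0874). Bin E008 of the HNRNPL row lies outside that stretch, and its call in CGG_siTRA vs CTL (0.51, SE 0.14, adjusted p = 0.047, diffSpliceDGE) ended in 17 of 21 alternatives. These were 12 fits without 1 library, namely any of CGG, TRA_OE or CTL, siTRA library a, or CGG_siTRA library b or c (between 0.0571 and 0.425), and 5 other settings (between 0.0601 and 1). HNRNPC had 1 called bin, E061, 1687 bases on chromosome 14 from 21263830 to 21265516, lower in TRA_OE than in siTRA at -1.36 (SE 0.34, adjusted p = 0.0258, diffSpliceDGE). It rests on 35.01 to 58.05 scaled counts per library in TRA_OE, against 81.3 to 136.6 in siTRA, and the call ended without any 1 TRA_OE library or siTRA library a (between 0.0667 and 0.297) and with only the groups compared (adjusted p = 0.692).

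In HNRNPM, bin E040, 296 bases on the plus strand of chromosome 19 from 8485862 to 8486157, was used more in 3 treated groups than in CTL. It held 2.47%, 3.11% and 3.02% of the gene's counts in CGG, 3.10%, 3.64% and 1.87% in TRA_OE, and 2.81%, 2.76% and 3.00% in CGG_siTRA, against 1.90%, 2.04% and 2.02% in CTL. CGG and CGG_siTRA did not overlap with CTL, while TRA_OE library c lay below it. The log2 change was 0.53 in CGG (SE 0.12, adjusted p = 0.011), 0.53 in TRA_OE (SE 0.12, adjusted p = 0.00924) and 0.52 in CGG_siTRA (SE 0.12, adjusted p = 0.00818, diffSpliceDGE). The calls ended without CGG library b or c or any 1 CTL library (between 0.0741 and 0.334), without TRA_OE library a or b or any 1 CTL library (between 0.0546 and 1), and without CGG_siTRA library c or any 1 CTL library (between 0.0568 and 0.119). All 3 also ended in limma (adjusted p = 0.16 in CGG, 0.339 in TRA_OE and 0.401 in CGG_siTRA), and the one in TRA_OE in the authors' deposited table (adjusted p = 0.613). Bins E005 and E006 near the 5′ end of HNRNPM, 13 and 2 bases, were higher in CGG_siTRA than in CGG, at 0.81 (SE 0.15, adjusted p = 0.000362) and 0.68 (SE 0.14, adjusted p = 0.00431, diffSpliceDGE). Neither call held without CGG_siTRA library b (adjusted p = 0.24 and 0.438), and that of E006 also ended without CGG_siTRA library c or any 1 CGG library and in limma (adjusted p = 0.137). In CGG_siTRA vs CTL both were also called, at 0.71 (SE 0.15, adjusted p = 0.00127) and 0.60 (SE 0.14, adjusted p = 0.0086), with groups that overlapped. These calls ended without CGG_siTRA library b or CTL library c (for E005, adjusted p = 0.237 and 0.223) and for E006 also without CGG_siTRA library c or CTL library b. In limma and in the authors' deposited table they ended as well (between 0.0516 and 0.197 for E005, between 0.169 and 0.211 for E006). HNRNPD, with 35 bins tested, and HNRNPF, with 12, had no bin called by diffSpliceDGE in any of the 7 comparisons, whereas the authors' deposited tables called at most 2 bins of HNRNPD and at most 3 of HNRNPF in a comparison.

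The authors' deposited splicing tables hold 51 events in the members among 6311 in all, each with an unadjusted p and a change in percent spliced in whose direction the tables do not state. In the authors' deposited table for CGG vs CTL, 10 of the 51 had p under 0.05, against 7.68% of all events. The number was 4 in TRA_OE vs CTL, against 8.18%, and 4 in CGG_siTRA vs siTRA, against 6.31%. It was 6 in CGG_TRA vs CGG, against 8.13%, and 5 in CGG_TRA vs CGG_siTRA, against 8.87%. Most of the 10 events in CGG vs CTL were in HNRNPH1. Several of these overlap or share coordinates, and 1, a cassette exon, had a deposited change of 0. The count of 10 is therefore no measure of a change across the family. A complex event of HNRNPH1 on chromosome 5 from 179617911 to 179620892, across part of the block of internal bins, changed in 4 of the 5 authors' deposited tables. Its change as deposited by the authors was -9.55 percentage points in CGG vs CTL (authors' p = 3.1e-05), -7.52 in TRA_OE vs CTL (authors' p = 0.0226), 2.59 in CGG_siTRA vs siTRA (authors' p = 0.0248) and 2.37 in CGG_TRA vs CGG (authors' p = 0.00596). The values against CTL come from the comparisons that picked the block of bins and are no separate evidence. The value in CGG_siTRA vs siTRA comes from groups whose libraries also entered the bin fits. In that comparison 0 HNRNPH1 bins passed diffSpliceDGE, and the mean share of the 15 bins was 0.999 times that of siTRA. The CGG_TRA samples of the value in CGG_TRA vs CGG had no counts here, but the CGG samples they were set against are those of CGG vs CTL.

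Further events of the members were smaller or in 1 table. In HNRNPA2B1 the authors' deposited table gave a retained intron on chromosome 7 from 26192338 to 26192495 a change of -9.61 points in CGG_TRA vs CGG_siTRA, and a cassette exon between 26197732 and 26200572 one of 4.75 in TRA_OE vs CTL. In HNRNPA1 the authors' deposited table for CGG_siTRA vs siTRA gave 2 complex events between 54282596 and 54283827 changes of 4.56 and 6.19 points. An alternative last exon of HNRNPA1 changed by 1.86 points in CGG vs CTL and by -1.10 in CGG_TRA vs CGG in the authors' deposited tables. In HNRNPL a retained intron from 38840376 to 38840488, next to bin E060, was listed at 1.85 points in CGG vs CTL. For 2 complex events of HNRNPH1 from 179616218 to 179617051 the authors' deposited tables gave 2.07 and 2.52 points in CGG vs CTL and -3.57 and -4.53 in CGG_TRA vs CGG. HNRNPC had an alternative 5′ splice site at -3.69 points in TRA_OE vs CTL, HNRNPF a complex event at 3.71 in CGG_TRA vs CGG_siTRA, and HNRNPM a cassette exon at -2.29 in CGG vs CTL, each as deposited by the authors. The other events of the members with an authors' p under 0.05 had deposited changes of -3.54 and 2.26 points (HNRNPH1, 179618323 to 179620892, in CGG vs CTL and CGG_TRA vs CGG), -1.38 points (HNRNPA2B1, 26191128 to 26192495, in CGG_siTRA vs siTRA) or less than 1 point either way.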

How the data were processed

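RNA of 18 COS-7 samples in 6 groups was sequenced, per the labels after Qiagen extraction with DNase and a TruSeq total RNA preparation with rRNA depletion. The submitters' processing notes name cutadapt 1.14, STAR 2.5.2, the build GRCh38.p10 and DESeq2. The authors deposited raw counts per exon bin in 6 tables, a normalised signal per bin, log2 fold changes and adjusted p-values of their bin comparisons, and 5 tables of splicing events with p-values, changes in the fraction spliced in and a z score, per the file headers. Human annotation was used for monkey reads, so divergent stretches may be undercounted.

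Counts of a gene were summed over its bins, so a read that spans several bins counts in each. Genes were tested with edgeR 4.0.16 (quasi-likelihood, TMM) over all 15 libraries with counts, with 1 mean per group, and bins with diffSpliceDGE, in R 4.3.3. A normalised count of 10 in 3 libraries was required, and p-values were adjusted by Benjamini-Hochberg over 14969 genes or 265486 bins. Libraries of a group are lettered a, b and c because the columns carry no replicate number. The alternatives were other scalings, filters and count definitions, DESeq2 1.42.0, limma 3.58.1 with a pseudocount of 1, fits of only the groups compared, and fits without 1 library. Up to 3 bins per member are named, ranked by size of change among called bins whose groups did not overlap and whose higher group averaged at least 50 counts. The methods were also run on simulated counts with known changes. That simulation held no differences between libraries in low-coverage bins, so it does not cover the ones seen here. The members and lists were chosen with earlier results of these data known. Other hnRNP-related genes, listed by symbol, were not analysed here because no symbol could be paired with the IDs.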

Additional observations from a re-analysis of the deposited data

Results flagged for a closer look

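The change in relative bin use with the knockdown differed between cells with and without the repeat in 10 bins of the members. The difference (CGG_siTRA - CGG) - (siTRA - CTL) was tested in diffSpliceDGE, where 0.108% of all bins passed. CTL enters only the part without the repeat, so an effect of transfection cannot be told apart from a dependence on the repeat. This bin test was added after the other comparisons had been seen, and siTRA and CTL, or CGG_siTRA and CGG, are shared by all 10. In HNRNPU the difference was -1.68 for E001, -1.63 for E012, -2.02 for E013, -2.08 for E014 and -1.39 for E015 on the log2 scale. The knockdown changed these 5 bins by -0.04 to 0.22 with the repeat and by 1.53 to 2.04 without it, and their shares were also higher in CGG than in CTL. In HNRNPA1 it was -0.85 for E041 and -1.16 for E043.

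The sign was the opposite in HNRNPH1, at 1.04 for E061 and 1.13 for E073, and in HNRNPK, at 1.16 for E028. The knockdown changed these 3 bins by 0.92, 0.98 and 0.93 with the repeat and by -0.12, -0.15 and -0.24 without it. The change with the repeat rests on CGG_siTRA libraries a and b. Their shares of the gene's counts were 0.252% and 0.206% for E061, 0.254% and 0.228% for E073, and 0.102% and 0.0817% for E028. Those of library c were 0.0877%, 0.124% and 0.0402%, near the CGG means of 0.096%, 0.102% and 0.0385%. For HNRNPH1 E073 the difference ended without CGG library a, siTRA library c or CGG_siTRA library a or b (adjusted p between 0.0615 and 0.0806) and in limma (adjusted p = 0.313). Without siTRA library b 25 bins of the members passed this test, without CGG_siTRA library c 23, and without CGG_siTRA library b or CTL library a 6.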

How the results depend on the processing

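No paired analysis was possible because the count columns carry neither the replicate numbers nor the rounds that the titles give. No alternative reversed the direction of a called change that was checked against the alternatives. Among changes not called, HNRNPL took the other sign from its own stretch of bins in CGG_siTRA vs siTRA and TRA_OE vs siTRA. Its log2 changes there were 0.0145 and -0.00238 for the whole row, and -0.0211 and 0.0118 for the stretch. The number of members called in CGG vs CTL was 1, but 2 with the authors' scaling, 4 when only the groups compared were fitted, 0 in limma and 2 with HNRNPL from its own stretch. It was 1 in place of 2 in TRA_OE vs CTL with the highest bin for the gene. In CGG_siTRA vs CGG it was 1 in place of 2 with no filter, with only the groups compared, with the highest bin or with HNRNPL from its own stretch. In TRA_OE vs siTRA it was 2 in place of 6 with only the groups compared. With the authors' scaling the median log2 change of all genes was -0.11 in CGG_siTRA vs CTL. With 1 library left out the number ranged from 0 to 2 in CGG vs CTL, 2 to 2 in TRA_OE vs CTL, 1 to 3 in siTRA vs CTL, 1 to 4 in CGG_siTRA vs CTL, 0 to 3 in CGG_siTRA vs CGG, 0 to 2 in CGG_siTRA vs siTRA, 3 to 6 in TRA_OE vs siTRA and 0 to 1 for the difference of knockdown effects.

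The number of member bins called moved more. With only the groups compared it was 72 in place of 22 in CGG vs CTL, 50 in place of 33 in TRA_OE vs CTL and 0 in place of 1 in CGG_siTRA vs siTRA. With the authors' adjusted p it was 109 in CGG vs CTL, 71 in TRA_OE vs CTL, 42 in place of 17 in siTRA vs CTL, 74 in place of 24 in CGG_siTRA vs CTL, 59 in place of 18 in CGG_siTRA vs CGG and 12 in place of 29 in TRA_OE vs siTRA. The share of all bins passing the authors' adjusted p is not given here. In limma it was 8 in CGG_siTRA vs siTRA and 21 in place of 10 for the difference of knockdown effects. With 1 library left out it ranged from 9 to 32 in CGG vs CTL, 21 to 41 in TRA_OE vs CTL, 10 to 24 in siTRA vs CTL, 7 to 38 in CGG_siTRA vs CTL, 1 to 39 in CGG_siTRA vs CGG, 0 to 10 in CGG_siTRA vs siTRA, 7 to 65 in TRA_OE vs siTRA and 6 to 25 for the difference of knockdown effects. The cause of these shifts was not tested. Bins with under 50 scaled counts per library rest on few reads.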
